A study of Homo sapiens with 6 samples.

Results

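The glycosyltransferases that build the core structures of gangliosides and globosides were followed in RMS13 cells with and without knockdown of GLI1. They are 10 genes of the 25702 in the deposited table, taken in pathway order: UGCG, B4GALT5, B4GALT6, A4GALT, B3GALNT1, ST3GAL5, ST8SIA1, B4GALNT1, B3GALT4 and ST3GAL2. The set was chosen by name from the glycosphingolipid pathway with values of the siGLI1 against siNT2 contrast already in view. Fold changes of these 10 genes in that contrast are therefore a description, and the adjusted p-values beside them only state where each gene fell in the fit over all genes.

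RMS13 is an established human rhabdomyosarcoma line, a tumour cell line with features of skeletal muscle, and 1 line was used throughout. RNA was sequenced from 3 libraries of cells in which GLI1 was knocked down by small interfering RNA, or siRNA (group siGLI1) and from 3 libraries of cells given a non-targeting siRNA (group siNT2). The labels give 72 h for the knockdown and the same culture medium for both groups. They name neither the siRNA sequences, nor how many siRNAs were used, nor whether replicates came from separate cultures, so the spread behind the p-values is that of these libraries and may be technical.

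Gangliosides and globosides are lipids of the outer cell membrane that carry a sugar chain on ceramide. Glucose is added first, then galactose, which gives lactosylceramide, and the pathway branches there. One branch adds another galactose and leads through Gb3 to globoside, and the other adds sialic acid and leads through GM3 to GM2, GM1 and, by a further sialic acid, to GD3 and GD2. Transcript levels of these enzymes do not measure the lipids themselves.

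Values are normalised read counts: the authors' read counts divided by 1 size factor per library. Recovered reads ranged from 13673977 to 18947614 per library. GLI1, the target of the siRNA, was at 14190 ± 3180 (SD, n = 3) in siNT2 and 919.9 ± 347 (SD, n = 3) in siGLI1 cells, 6.48% of the siNT2 mean. All 6 skeletal muscle markers examined (MYOD1, MYOG, DES, CHRNA1, CDH15 and MYMK) had a mean of 10 or more, and their summed level was 42484.1 to 59590 in siNT2 and 47644.1 to 71772 in siGLI1 libraries. Of the 6, 3 rose in limma: DES (log2 fold change 0.97, adjusted p = 0.0153), CHRNA1 (0.62, adjusted p = 0.0112) and MYMK (1.57, adjusted p = 0.0151). MYOD1 (-0.04), CDH15 (-0.02) and MYOG (0.24), which make up most of the sum, did not pass the threshold. The summed levels of epithelial and blood cell markers were far lower, at 47.6 to 59 in siNT2 against 27.7 to 37.8 in siGLI1 libraries for 3 epithelial markers and 36.7 to 77.1 against 42.1 to 73.2 for 3 blood cell markers. The 3 endothelial markers summed to 13.6 to 26.4 in siNT2 and 94.1 to 102.7 in siGLI1 libraries. PECAM1 accounted for this, at 10.99 ± 4.71 and 86.35 ± 4.54 (log2 fold change 2.96, limma adjusted p = 0.00226), while VWF and CDH5 had means under 10. The 4 markers of neurons and neural crest tumours summed to 6.4 to 23.3 in siNT2 and 4.3 to 7.1 in siGLI1 libraries. Of these 4, 0 had a mean of 10 or more. The part of the muscle and endothelial markers that moved in the results on the enzymes was not tested.

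Of the 10 enzymes, 8 had a mean of 10 or more over the 6 libraries and entered the test, and each of the 8 also reached that mean within both groups. A4GALT and B4GALNT1 fell, 0 rose, and the other 6 did not pass the threshold of an adjusted p under 0.05 (limma, Benjamini-Hochberg over 15622 genes). Of all genes tested, 7.21% were called higher and 8% lower. The groups did not overlap in 2 of the 8 enzymes and in 36.2% of all genes tested, and nothing is read from these shares because the same contrast was in view when the enzymes were chosen. The median log2 fold change was -0.24 over the 8 enzymes and -0.01 over all genes tested. The enzymes nearest the minimum mean of 10 were B3GALT4 at 12.06 and B4GALT6 at 12.53 on the inside, and ST8SIA1 at 3.184 on the outside. In bulk RNA, fewer cells with a transcript and less transcript per cell cannot be told apart.

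**Figure D1:**
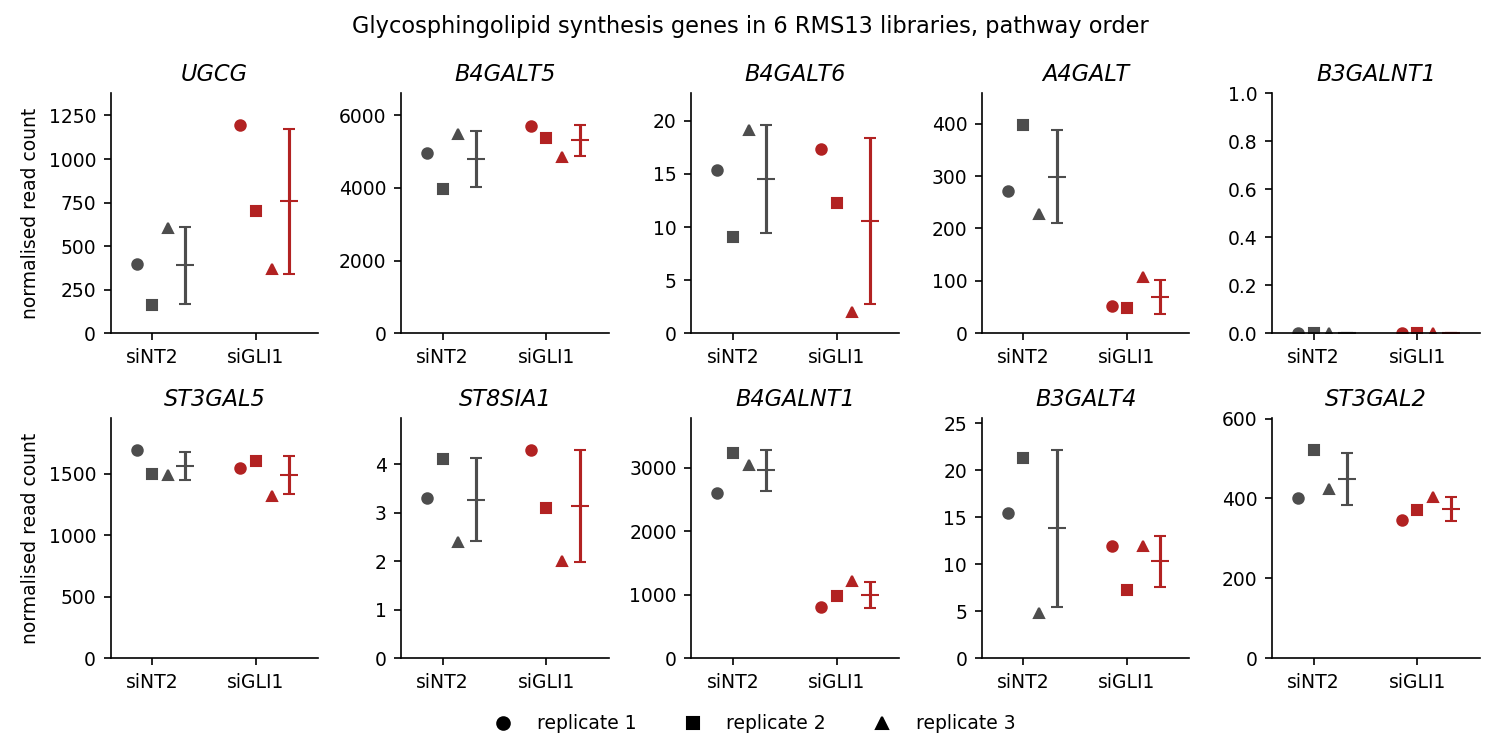
Normalised read count (vertical axis) of each of the 10 genes in the 3 siNT2 and 3 siGLI1 libraries, 1 panel per gene in pathway order; points are libraries, horizontal marks are group means and bars are ± 1 SD. The siGLI1 points of A4GALT and B4GALNT1 lie below all siNT2 points, those of the other detected genes overlap, and B3GALNT1 is at 0 in every library.

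UGCG (Entrez gene 7357, chromosome 9) encodes glucosylceramide synthase, the enzyme that commits ceramide to this pathway. Its normalised read count was 397.5, 165.3 and 606.8 in siNT2 replicates 1 to 3 and 1196.6, 704.4 and 371.4 in siGLI1 replicates 1 to 3. The groups overlapped, since siGLI1 replicate 3 lay below siNT2 replicates 1 and 3. The means were 389.9 ± 221 and 757.4 ± 415 (SD, n = 3 per group), and the log2 difference of 0.99 (standard error 0.54, 95% interval -0.27 to 2.25) did not pass the threshold in limma (Benjamini-Hochberg adjusted p = 0.257). The interval of UGCG includes both 0 and a log2 difference as large as that of A4GALT.

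B4GALT5 and B4GALT6 encode the enzymes that add galactose to glucosylceramide and so form lactosylceramide. B4GALT5 (Entrez gene 9334, chromosome 20) was at 4971, 3970.6 and 5481.6 in siNT2 and 5698.9, 5382.5 and 4859.2 in siGLI1 libraries. These ranges overlapped, with a log2 difference of 0.15 (95% interval -0.2 to 0.51, limma adjusted p = 0.529). B4GALT6 (Entrez gene 9331, chromosome 18) was close to the detection limit, at 15.4, 9.1 and 19.1 in siNT2 and 17.3, 12.3 and 2 in siGLI1 libraries. The lowest of these values, in siGLI1 replicate 3, rested on 2 reads, and the log2 difference was -0.74 in limma (95% interval -2.29 to 0.82, adjusted p = 0.491) and -0.49 in edgeR. Per kilobase of exon, B4GALT5 exceeded B4GALT6 by 236 to 358 times in the siNT2 libraries and by 272 and 362 times in siGLI1 replicates 1 and 2. In siGLI1 replicate 3 the ratio was 2030, where the denominator was those 2 reads.

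A4GALT (Entrez gene 53947, chromosome 22) encodes Gb3 synthase, which opens the globoside branch by adding galactose to lactosylceramide. Its normalised read count was 271.2, 397.6 and 228.1 in siNT2 libraries and 51.8, 49.1 and 106.7 in siGLI1 libraries. Every siGLI1 value lay below every siNT2 value, and siGLI1 replicate 3 was the highest of its group. The mean went from 299 ± 88.1 to 69.19 ± 32.5 (SD, n = 3 per group), 23.1% of the siNT2 level. On the log2 scale A4GALT fell by 2.15, with a standard error of 0.34 and an interval of -2.94 to -1.36 (limma, adjusted p = 0.00713). In whole reads this was a fall from 247 to 392 reads per siNT2 library to 48 to 108 reads per siGLI1 library. edgeR's quasi-likelihood test on the recovered reads gave an adjusted p of 0.00901.

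Windows of 250 bases before to 50 bases after annotated starts (RefSeq, GRCh38.p14) were matched for UGCG, B4GALT5, A4GALT, B3GALNT1, ST3GAL5 and ST8SIA1, 13 windows in all. B4GALNT1, B4GALT6, B3GALT4 and ST3GAL2 were not matched and were not searched. Those of A4GALT are printed because it had the larger of the called differences, and its windows show how far apart the base compositions of its annotated starts lie. A4GALT, window at chr22:42720821-42721120, minus strand, 81.0% G and C:
A4GALT start 1: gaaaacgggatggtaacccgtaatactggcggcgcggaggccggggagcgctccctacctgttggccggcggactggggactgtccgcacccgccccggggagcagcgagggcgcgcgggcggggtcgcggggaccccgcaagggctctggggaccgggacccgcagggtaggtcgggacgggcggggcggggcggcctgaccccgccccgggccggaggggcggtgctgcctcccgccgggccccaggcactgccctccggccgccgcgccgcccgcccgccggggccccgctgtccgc
A4GALT, window at chr22:42721252-42721551, minus strand, 43.3% G and C:
A4GALT start 2: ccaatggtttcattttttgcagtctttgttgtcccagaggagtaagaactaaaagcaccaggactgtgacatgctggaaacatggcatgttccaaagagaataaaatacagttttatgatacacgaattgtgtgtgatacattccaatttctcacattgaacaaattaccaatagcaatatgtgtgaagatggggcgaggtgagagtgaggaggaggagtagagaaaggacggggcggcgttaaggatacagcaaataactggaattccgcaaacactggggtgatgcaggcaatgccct
Both are printed in the 5′ to 3′ direction of the gene, with no capitals because no motif searched was found. The GLI consensus GACCACCCA (TGGGTGGTC on the other strand) was absent from these 13 windows, and it occurred in 83 of 35116 windows of the same length (0.236%). Its core CCACCCA, which lies within the consensus and was likewise searched on both strands, occurred in 1 window, of B3GALNT1, and in 9.19% of all windows. A match or its absence describes these letters in these windows, and says nothing of binding.

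B3GALNT1 (Entrez gene 8706, chromosome 3), which encodes the enzyme that turns Gb3 into globoside, was listed at 0 in all 6 libraries. The annotation and strand setting behind the counts are not known here, so whether this 0 reflects expression or how the gene was counted was not tested. Counting error alone leaves room for up to 3 reads behind a 0, or 2.39 to 3.29 in units of the deposited values, and 3309 genes of the table were listed at 0 in every library. No fold change can be given for B3GALNT1.

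ST3GAL5 (Entrez gene 8869, chromosome 2) encodes GM3 synthase, the first step of the ganglioside branch, which acts on the same lactosylceramide as A4GALT. It was at 1697.6, 1500 and 1491.2 in siNT2 and 1548.6, 1605 and 1319.5 in siGLI1 libraries. The groups overlapped and the log2 difference was -0.07 (standard error 0.14, 95% interval -0.39 to 0.24, limma adjusted p = 0.758). ST3GAL5 and B4GALT5 had the narrowest intervals of the enzymes, together with ST3GAL2, so that a change as large as that of A4GALT lies outside all of them.

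The next steps of this branch differ in level. ST8SIA1 (Entrez gene 6489, chromosome 12), encoding GD3 synthase, had 2 to 4 reads in each library, too few to enter the test. At this depth a fall or a small difference could not be detected. Exons of ST8SIA1 overlap those of RNU1-149P on the same strand. B4GALNT1 (Entrez gene 2583, chromosome 12) encodes the enzyme that adds N-acetylgalactosamine to GM3 and GD3 and so makes GM2 and GD2. Its normalised read count was 2600.2, 3236.3 and 3048.6 in siNT2 libraries and 799.2, 985.5 and 1214.8 in siGLI1 libraries. The lowest siNT2 library lay far above the highest siGLI1 library. The mean went from 2962 ± 327 to 999.8 ± 208 (SD, n = 3 per group), 33.8% of the siNT2 level. On the log2 scale B4GALNT1 fell by 1.58, with a standard error of 0.18 and an interval of -2 to -1.16 (adjusted p = 0.00217 in limma and 0.002318 in edgeR). Like GLI1, it lies on chromosome 12.

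Exons of B4GALNT1 overlap those of SLC26A10P on the opposite strand. Whether reads were counted by strand is not given in the sources used here, so reads of the 2 genes cannot be told apart where they overlap. SLC26A10P was at 3270.1, 5196.8 and 3688.9 in siNT2 and 1166.3, 2317.6 and 3307.6 in siGLI1 libraries. Its groups overlapped and its log2 difference of -0.94 did not pass the threshold (95% interval -1.78 to -0.09, limma adjusted p = 0.125). With the correction for GC content given below, the difference of SLC26A10P was -0.75 and passed (95% interval -1.27 to -0.23, limma adjusted p = 0.0367).

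B3GALT4 and ST3GAL2 extend the ganglioside chain, B3GALT4 by the galactose that turns GM2 into GM1 and ST3GAL2 by a sialic acid on such chains. B3GALT4 (Entrez gene 8705, chromosome 6) was at 15.4, 21.3 and 4.8 in siNT2 and 11.9, 7.2 and 11.9 in siGLI1 libraries, from 6 to 21 reads per library. With a log2 difference of -0.22 and an interval from -1.42 to 0.99 (limma adjusted p = 0.808), these few reads allow either direction. ST3GAL2 (Entrez gene 6483, chromosome 16) was at 401.9, 522.3 and 422.6 in siNT2 and 345.6, 370.1 and 403.9 in siGLI1 libraries, overlapping only between siNT2 replicate 1 and siGLI1 replicate 3. Its log2 difference was -0.26 (95% interval -0.62 to 0.11, limma adjusted p = 0.3). Exons of ST3GAL2 also overlap a gene on the opposite strand, AC012184.1.

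ST3GAL2 was the only enzyme of the 10 with the heptamer GCACCTC in an annotated 3′ UTR (GENCODE 29). The heptamer was examined because its share differs in this contrast: among tested genes with a 3′ UTR, 15.9% of those with it were called lower, against 6.88% of those without. These shares were not matched for 3′ UTR length, and an effect of the heptamer was not tested. The heptamer occurred once in ST3GAL2, at position 2327 of a 3′ UTR of 5714 bases, and is shown in capitals.
ST3GAL2 3′ UTR site: ctatacaggagGCACCTCattcctggact
A4GALT and B4GALNT1, the enzymes that fell, held 0 copies, and the heptamer occurred in 1765 of 13230 tested genes with a 3′ UTR (13.3%).

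**Figure D2:**
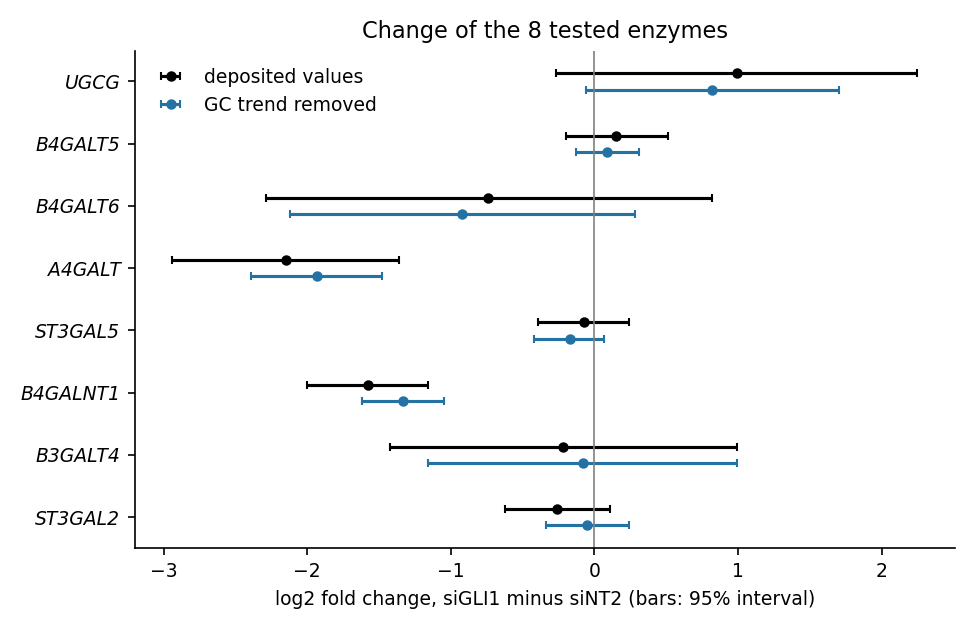
Log2 fold change, siGLI1 minus siNT2, of the 8 tested enzymes with 95% intervals from limma, without and with a correction for GC content. The intervals of A4GALT and B4GALNT1 lie below 0 in both fits, and those of the other 6 include 0.

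Levels can be compared between enzymes only per length. The length of a gene was taken as all its annotated exons merged, whichever transcripts the cells use. Ranks and ratios between enzymes depend on that choice. Per kilobase of exon, the siNT2 order was B4GALT5 at 1020 ± 163, B4GALNT1 at 697 ± 76.9, ST3GAL5 at 272 ± 20.3, A4GALT at 116 ± 34.1, UGCG at 97.3 ± 55.1 and ST3GAL2 at 49.8 ± 7.14 (SD, n = 3 each). B3GALT4 followed at 8.16 ± 4.94, B4GALT6 at 3.74 ± 1.3 and ST8SIA1 at 0.297 ± 0.0762. The libraries of A4GALT and UGCG, of UGCG and ST3GAL2, and of B3GALT4 and B4GALT6 overlapped, so the order within these pairs is not larger than their spread. The libraries of the other neighbours in that order did not overlap.

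In siGLI1 cells the order per kilobase was B4GALT5 at 1130 ± 89.8, ST3GAL5 at 259 ± 26.3, B4GALNT1 at 235 ± 49, UGCG at 189 ± 104, ST3GAL2 at 41.4 ± 3.25 and A4GALT at 26.7 ± 12.6. B4GALNT1 thus went from rank 2 to rank 3 and A4GALT from rank 4 to rank 6. ST3GAL5 and B4GALNT1 overlapped here, as did B4GALNT1 and UGCG, and ST3GAL2 and A4GALT. The enzyme feeding both branches, B4GALT5, was at the top in all 6 libraries.

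**Figure D3:**
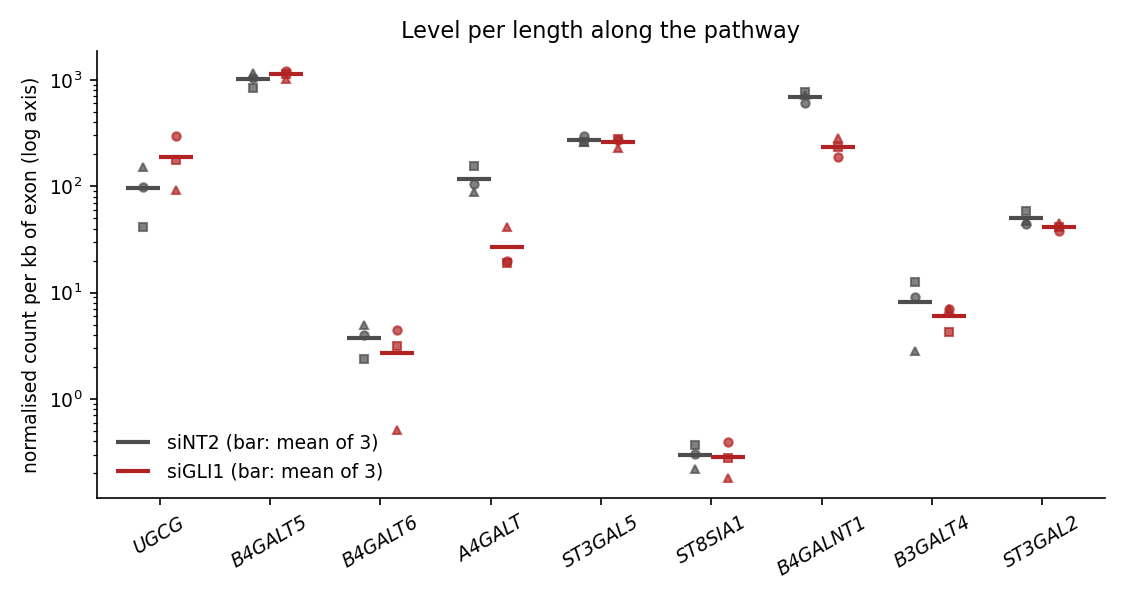
Normalised read count per kilobase of exon (log axis) of the enzymes along the pathway in siNT2 and siGLI1 libraries; points are libraries, horizontal bars are group means, and B3GALNT1, at 0, cannot be drawn on this axis. B4GALT5 is highest in both groups, B4GALNT1 falls from 697 to 235 and A4GALT from 116 to 26.7.

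The ratio of each fallen enzyme to ST3GAL5 was computed within each library. B4GALNT1 to ST3GAL5, the enzyme that makes its substrate GM3, was 2.07, 2.92 and 2.77 per kilobase in siNT2 and 0.698, 0.831 and 1.25 in siGLI1 libraries. This ratio was above 1 in each siNT2 library and in siGLI1 replicate 3 and below 1 in the other siGLI1 libraries. Where 1 falls depends on the exon lengths taken for these genes. A4GALT to ST3GAL5, which compares the openings of the globoside and the ganglioside branch, was 0.355, 0.589 and 0.34 in siNT2 and 0.0743, 0.0679 and 0.18 in siGLI1 libraries. Neither ratio overlapped between the groups. The numerators were taken because they had fallen in this same contrast while ST3GAL5 had not, so nothing further is read from that separation. B4GALNT1 to A4GALT was 5.84, 4.96 and 8.14 in siNT2 and 9.39, 12.2 and 6.94 in siGLI1 libraries, and here the groups overlapped.

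Libraries of the same group differed along the GC content of genes, and the enzymes range from 39.7% (B4GALT6) to 63.1% (B4GALNT1). Rank correlations of GC content with each library's deviation from its group mean were taken over the 14438 tested genes with a GC value. They were -0.48, 0.68 and -0.58 in siNT2 replicates 1 to 3 and -0.67, -0.29 and 0.72 in siGLI1 replicates 1 to 3. The GC-rich enzymes A4GALT (61.4%), ST3GAL2 (61.0%) and B4GALNT1 (63.1%) were highest within their group in siNT2 replicate 2 and in siGLI1 replicate 3. UGCG (40.8%) and B4GALT6 (39.7%) were lowest in the same libraries, UGCG by 1.04 below its siNT2 mean and 0.87 below its siGLI1 mean on the log2 scale.

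**Figure D4:**
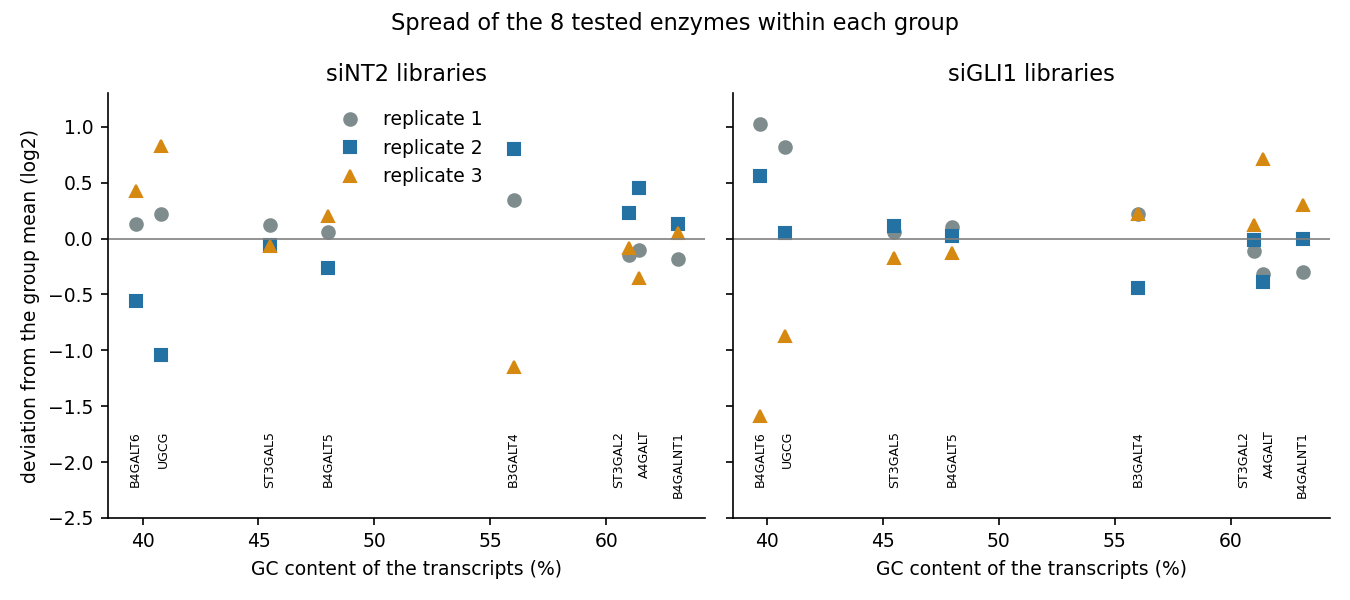
Deviation of each library from its group mean (log2, vertical axis) against the GC content of the transcripts (%, horizontal axis) for the 8 tested enzymes, in siNT2 (left) and siGLI1 (right) libraries. siNT2 replicate 2 and siGLI1 replicate 3 lie below 0 at UGCG and B4GALT6 and above 0 at A4GALT, ST3GAL2 and B4GALNT1.

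With the GC trend of each library removed, A4GALT was at 271.7, 295.6 and 241.2 in siNT2 and 68.7, 54 and 90.7 in siGLI1 libraries, a log2 difference of -1.93 (95% interval -2.39 to -1.48, limma adjusted p = 0.000293). B4GALNT1 was at 2611.3, 2324.8 and 3218.8 against 1098.2, 1093.5 and 1011.9, a log2 difference of -1.33 (95% interval -1.62 to -1.05, limma adjusted p = 0.000203). Both differences were thus smaller in size and had narrower intervals than without the correction. The trend was fitted to each library's deviation from the mean of all 6 libraries. The correction therefore also takes out any difference between the groups that follows GC content. How much of each shift came from that was not tested. UGCG still overlapped between the groups, with a log2 difference of 0.82 (95% interval -0.06 to 1.7, limma adjusted p = 0.139), and the difference of ST3GAL2 moved to -0.05 (95% interval -0.34 to 0.24, limma adjusted p = 0.794).

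Around these enzymes, 80 further genes in 4 lists were counted, of which 70 were tested. The lists hold genes of sphingolipid metabolism and of sialic acid and nucleotide sugar supply. Of the 70, 8 (11.4%) rose and 7 (10.0%) fell in limma, with a median log2 fold change of 0.04, and the groups did not overlap in 31.4%. Among all genes tested these shares were 7.21%, 8% and 36.2%.

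Other glycosyltransferases of these chains went both ways, with 4 of 19 tested members higher, 3 lower and 12 not called, and a median log2 fold change of 0.03. ST8SIA5, which adds sialic acid to gangliosides that already carry it, rose from 129.3 ± 16 to 281.2 ± 47.1 (log2 fold change 1.11, adjusted p = 0.00839). B3GALT2, a galactosyltransferase of N-acetylglucosamine ends, rose from 10.53 ± 5.64 to 77.93 ± 26.7 (log2 fold change 2.87, adjusted p = 0.00837). ST3GAL6, a sialyltransferase of galactose ends, fell from 186.8 ± 31.5 to 82.81 ± 6.98 (log2 fold change -1.15, adjusted p = 0.00727). Each of these 3 lost its call without siGLI1 replicate 2, with adjusted p-values of 0.0509, 0.0527 and 0.0509 in turn. B4GALT1, a galactosyltransferase of N-acetylglucosamine, fell from 575.1 ± 89.1 to 361.6 ± 33.9 (log2 fold change -0.66, adjusted p = 0.0338), a call kept in 1 of 6 fits that each left out a library and lost with the GC correction. The remaining calls, ST3GAL4 (0.55), ST6GALNAC4 (0.67) and B3GALT5 (-1.09), are named after their values were seen, and were kept in 1, 0 and 3 of those 6 fits. With the GC correction the list counted 5 higher and 2 lower.

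Genes of ceramide supply and the sphingomyelin branch were mostly not called, with 1 of 18 tested higher, 0 lower, 17 not called and a median of 0.15. The 1 call was CERS2, a ceramide synthase for very long acyl chains, at 1582 ± 69.4 and 2379 ± 183 (log2 fold change 0.59, adjusted p = 0.0191). It was lost without siNT2 replicate 1, siNT2 replicate 2 or siGLI1 replicate 2. SPTLC2, a subunit of serine palmitoyltransferase, stood at -0.6 (adjusted p = 0.0815), CERS1, another ceramide synthase, at 0.79 (adjusted p = 0.0819) and KDSR, the reductase of the next step after serine palmitoyltransferase, at 0.5 (adjusted p = 0.0857). With the GC correction the ceramide list counted 3 higher and 2 lower. SPTLC2, CERS1 and KDSR passed the threshold there and in DESeq2, but not in edgeR.

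Among genes of lysosomal and membrane breakdown, 1 of 17 tested was higher, 3 were lower and 13 were not called, with a median log2 fold change of -0.21. GLA, alpha-galactosidase A, which removes the galactose that A4GALT adds, was at 799.4, 834.7 and 708.1 in siNT2 and 301.3, 361.9 and 403 in siGLI1 libraries. GM2A, the activator protein needed to degrade GM2, which B4GALNT1 makes, was at 126.3, 163.3 and 130.8 in siNT2 and 35.6, 45 and 59.3 in siGLI1 libraries. Neither gene overlapped between the groups. GLA fell by 1.14 (adjusted p = 0.00444) and GM2A fell by 1.59 (adjusted p = 0.00547) on the log2 scale. ASAH1, acid ceramidase, fell from 439.6 ± 61.2 to 209.2 ± 29.4 (log2 fold change -1.07, adjusted p = 0.00818). PSAP, the precursor of the saposins that assist these lipid hydrolases, rose from 4745 ± 404 to 7892 ± 103 (log2 fold change 0.74, adjusted p = 0.00707). PSAP was no longer called when either siNT2 replicate 1 or siGLI1 replicate 2 was left out. With the GC correction the breakdown list counted 3 higher and 3 lower.

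Of the 16 genes of sialic acid and nucleotide sugar supply, all tested, 2 were higher, 1 lower and 13 not called, with a median of 0.03. GNPNAT1, an acetyltransferase on the way to UDP-N-acetylglucosamine, rose from 267.7 ± 36.9 to 647.8 ± 43.5 (log2 fold change 1.28, adjusted p = 0.0027), and UAP1, which makes that sugar nucleotide, fell from 979 ± 71.2 to 528 ± 58.9 (log2 fold change -0.89, adjusted p = 0.00734). PGM1, phosphoglucomutase, rose from 1263 ± 188 to 2255 ± 185 (log2 fold change 0.84, adjusted p = 0.0118). UAP1 was no longer called when siGLI1 replicate 2 was left out, nor was PGM1 when that library or siNT2 replicate 1 was. GNE, which opens sialic acid synthesis, stood at 0.67 and did not pass the threshold (adjusted p = 0.0662). With the GC correction this list counted 5 higher and 2 lower. GNE passed the threshold there and in DESeq2, but not in edgeR.

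**Figure D5:**
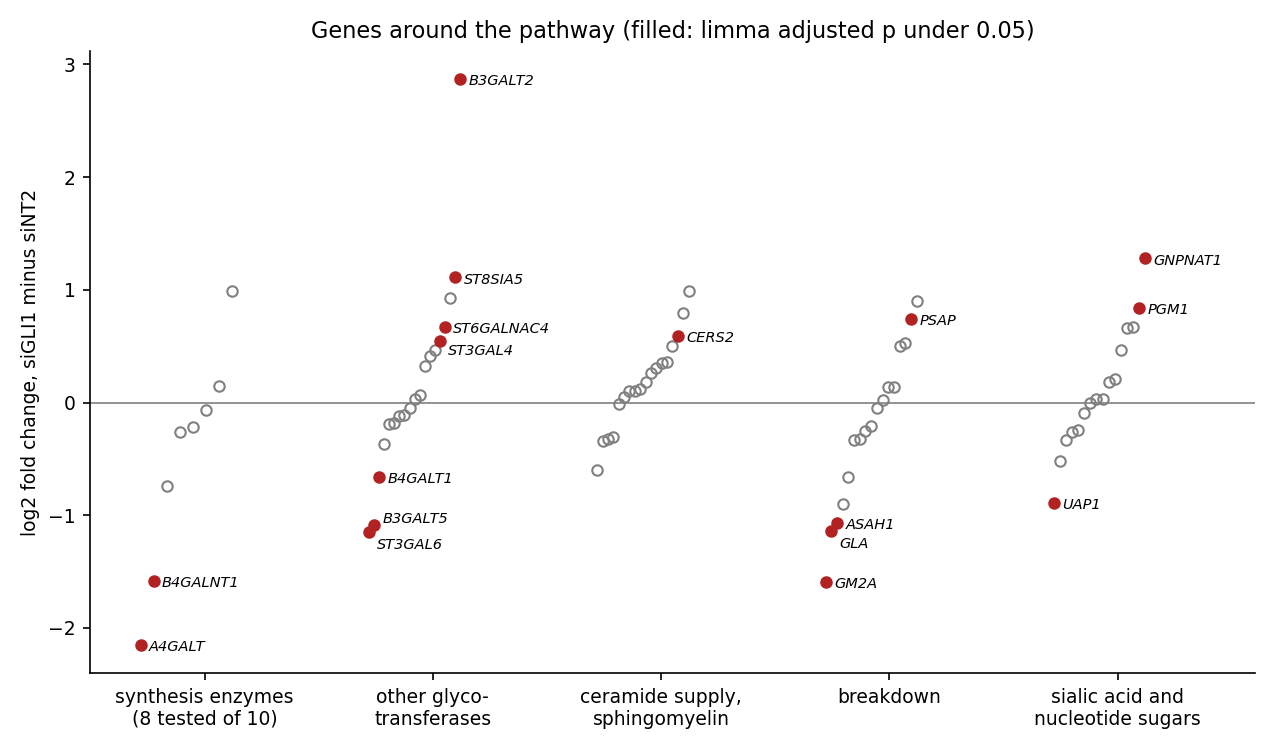
Log2 fold change, siGLI1 minus siNT2 (vertical axis), of the tested enzymes of ganglioside and globoside synthesis and of the tested genes of the 4 further lists; filled points have a limma adjusted p under 0.05. The filled points among the synthesis enzymes are A4GALT at -2.15 and B4GALNT1 at -1.58, and the breakdown list holds GM2A, GLA and ASAH1 below 0 and PSAP above.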

How the data were processed

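RNA sequencing libraries of RMS13 cells (3 siNT2, 3 siGLI1) were grouped by their titles and siRNA labels. Per the submitters' processing notes, the genome build was hg19 and the tools were DESeq2 2.11.40.6, Subread 1.6.4 with featureCounts, Bowtie2 2.3.3.1, Trim Galore 0.4.5 and bcl2fastq. The sources used here give neither the strand setting nor the gene annotation. The authors deposited signal values, read counts divided by 1 size factor per library. In each library 100.0% of values were whole reads within 0.01 reads, so reads were recovered for the count tests. Same-group libraries differed beyond sampling noise (chi-square per degree of freedom 9.68 to 60.4). Symbols came from RefSeq (23696 of 25702 IDs), and exon lengths, GC content and 3′ UTRs from GENCODE 29, neither being the authors' annotation.

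limma 3.58.1 in R 4.3.3, with a mean-variance trend, was run on log2(value + 1), where the pseudocount draws differences of low genes towards 0, for 15622 genes with a mean of 10 or more. P-values were adjusted by Benjamini-Hochberg over these genes with a threshold of 0.05. Alternatives were edgeR 4.0.16, DESeq2 1.42.0, pseudocounts of 8 and 0.5, no filter and a minimum mean of 50, quantile normalization, a lowess correction for GC content (span 0.3; 14438 tested genes, 92.4%, had a GC value), a replicate block, and leaving out each library. Only the limma fit was tested on simulated counts, which held no GC trend between libraries. The enzymes and lists were chosen with earlier results of these data known. All 10 enzymes and GLI1 were named, as were the 4 genes with the smallest p in each list. Floors of 3 reads cover counting error only, since PCR copies are not independent molecules.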

Additional observations from a re-analysis of the deposited data

How the results depend on the processing

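A4GALT and B4GALNT1 were called lower, and 0 enzymes higher, under all 10 other settings and all 6 fits that each left out a library. Their log2 fold changes ranged from -2.5 to -1.92 and from -1.73 to -1.33, with adjusted p-values up to 0.0446 and 0.0204. UGCG ranged from 0.47 to 1.42 and passed in none.

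Counts for all genes moved further, and the cause was not tested. Higher calls numbered 462 with the replicate block, 2333 with the GC correction, 1758 with both and 283 to 1562 with 1 library left out, and lower calls 508, 2260, 1705 and 358 to 1705 in turn. The lowest of each range was without siGLI1 replicate 2. In the 4 lists, higher calls numbered 5 with the block, 16 with the GC correction, 14 with both and 1 to 11 with 1 library left out, and lower calls 3 to 7 with 1 library left out.

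Small differences changed sign when 1 library was left out. B4GALT6 reached 0.0592 and ST3GAL5 0.0151 without siGLI1 replicate 3, and B3GALT4 reached 0.1835 without siNT2 replicate 2 and 0.004 without siGLI1 replicate 2. The ranges were -1.2503 to 0.0592 for B4GALT6, -0.1261 to 0.0151 for ST3GAL5 and -0.7898 to 0.1835 for B3GALT4.

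Same-numbered libraries share the stem of a code in their descriptions, which the labels do not explain. They deviated with correlations of 0.49, -0.11 and -0.61. The highest of any siNT2 and siGLI1 pair, 0.76, was between siNT2 replicate 2 and siGLI1 replicate 3. Deviations in these libraries had rank correlations with GC content of 0.68 and 0.72. Since they follow GC content, these values cannot decide whether same-numbered libraries were paired. The main fit took no pairing, and the replicate block is given as an alternative. With the replicate block, CERS2, the 1 call of the ceramide list, was no longer called, nor were ST3GAL4, ST6GALNAC4, B4GALT1 and B3GALT5, which left 5 higher and 5 lower in the 4 lists. Depth limits B4GALT6, B3GALT4 and ST8SIA1.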
